A study of Mus musculus with 6 samples.

Results

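Haemoglobin and red cell genes were described in RNA from the cochlear lateral wall of old and young mice. The genes were taken by symbol from a list of haemoglobin and erythroid genes. All 9 listed genes, Hba-a1, Hba-a2, Hbb-bs, Hbb-bt, Alas2, Klf1, Rhag, Epb42 and Tfrc, were present among the 17091 genes measured. The lateral wall holds the stria vascularis, a richly vascularised epithelium that sustains the endocochlear potential, and the spiral ligament behind it. The old group was 3 CBA/CaJ mice aged 2.5 years and the young group was 3 CBA/CaJ mice aged 2 months. CBA/CaJ is an inbred strain, and no transgene, deletion or treatment is named for either group. Both cochleas of a mouse were pooled into 1 library. The labels disagree on the source: tissue and titles give the lateral wall, but a second field calls every sample auditory nerve cells. The study's question, as its title gives it, is which molecular changes accompany ageing in this tissue.

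Red cell precursors make haemoglobin from alpha chains, beta chains and haem, and they take up the iron for haem through the transferrin receptor. The maturing cell expels its nucleus, and the young red cell (reticulocyte) that enters the blood still carries globin RNA. Genes for transcription factors such as Klf1 and Gata1 are active in the nucleated precursors of the marrow, while globin RNA persists longest.

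All values are normalised read counts, that is read numbers scaled by the authors for library size, and 1 read is worth 0.946 to 1.05 of these units. Depth was even, with 37577315 to 39103400 reads in the old libraries and 37055355 to 38179953 in the young libraries. Fold changes are differences of mean log2(value + 1), old minus young, tested with limma over all genes, and a gene is said to have passed where the Benjamini-Hochberg adjusted p is under 0.05. By this test 898 of all 17091 genes passed, 463 higher and 435 lower in old. The library old replicate 3 had 45.2 normalised read counts of Xist, the RNA of the inactive X chromosome, against 24382 to 29162 in the other 5 libraries. The labels give no sex, and results are therefore also given without this library where they turn on it. The 14 lateral wall markers summed to 1005270 to 1330380 normalised read counts in old libraries and to 1500410 to 1654850 in young libraries, and none was at 0 in either group.

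In the old lateral wall, 8 of the 9 genes had more RNA on average, by 1.38 to 3.28 on the log2 scale, and the exception was Tfrc at 0.06. The old mice differed widely among themselves, and none of these differences passed. Red cell RNA was high in old replicates 1 and 3 and close to the young level in old replicate 2. Averaged over the 9 genes, log2 values exceeded those of the young group by 2.51, 0.70 and 3.25 in old replicates 1, 2 and 3. In bulk tissue, more cells of a type and more RNA per cell cannot be told apart, and this holds for every difference below.

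Adult mice carry a pair of alpha globin genes, Hba-a1 and Hba-a2, that encode nearly the same chain, and a pair of adult beta globin genes. The copies can be told apart only by reads that cover sequence they do not share. In GENCODE M21 (GRCm38), Hba-a1 lies at chr11:32283511-32284465 and Hba-a2 at chr11:32296489-32297298, both on the plus strand. Hbb-bs lies at chr7:103826534-103828096 and Hbb-bt at chr7:103812524-103813996, both on the minus strand. The coding sequences of Hba-a1 and Hba-a2 have 429 bases each and differ at 1 of them (99.8% identity), and those of Hbb-bs and Hbb-bt have 444 bases each and also differ at 1 (99.8% identity). The stretches around these bases are shown, with the differing base in capitals, because it is the only coding base that separates a pair. It is coding base 381 within bases 341 to 421 of the alpha genes, and coding base 417 within bases 377 to 444 of the beta genes.
Hba-a1: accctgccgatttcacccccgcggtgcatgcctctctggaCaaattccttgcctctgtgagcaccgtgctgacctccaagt
Hba-a2: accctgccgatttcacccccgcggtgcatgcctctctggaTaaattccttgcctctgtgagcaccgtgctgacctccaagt
Hbb-bs: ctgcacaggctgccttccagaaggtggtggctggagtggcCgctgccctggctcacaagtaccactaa
Hbb-bt: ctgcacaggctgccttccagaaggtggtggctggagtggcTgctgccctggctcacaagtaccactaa

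Of all 50-base windows, 439 are identical between the 2 alpha transcripts, which is 67.5% of those in Hba-a1 and 86.9% of those in Hba-a2. Hbb-bs and Hbb-bt share 381 windows, 65.8% of those in Hbb-bs and 58.3% of those in Hbb-bt. The level of a single copy is therefore uncertain. The sum over the 4 genes does not depend on how reads were divided between the 2 copies of a pair. It leaves out 2 further beta names, Hbb-b1 and Hbb-b2, described below.

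Haemoglobin alpha RNA averaged 5.85 times the young level for Hba-a1 and 5.94 times for Hba-a2 in old lateral wall, without passing the test. Hba-a1 had 7831, 2734 and 15920.5 normalised read counts in old replicates 1, 2 and 3, against 1893, 1584 and 1052 in young replicates 1, 2 and 3. Every old library lay above every young one, but the highest old library stood far above the lowest. Hba-a1 averaged 8828 ± 6650 in old and 1509 ± 425 in young lateral wall (SD, n = 3 each), with a log2 difference of 2.25 ± 0.62 (SE, 95% interval 0.77 to 3.73), and limma gave an adjusted p of 0.0976. Hba-a2 had 6705, 2619 and 14230 in old and 1739, 1347 and 876 in young libraries. It followed the same order of libraries, without overlap between the groups, with a log2 fold change of 2.31 ± 0.60 (SE) and a limma adjusted p of 0.0877.

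The beta chain pairs with the alpha chain in the haemoglobin tetramer, and its gene Hbb-bs differed by a similar amount. Hbb-bs had 5238, 1524 and 9332 normalised read counts in old replicates 1, 2 and 3, against 1073, 730.2 and 806.6 in young replicates 1, 2 and 3. The groups did not overlap, and old replicate 2 was again the nearest to the young libraries. Its log2 fold change was 2.29 ± 0.62 (SE, 95% interval 0.80 to 3.79), with a limma adjusted p of 0.0963. The second beta gene, Hbb-bt, was counted with few reads, 15, 7 and 36 in old and 2, 3 and 2 in young libraries. Summed over libraries these are 58 reads against 7, a depth-corrected ratio of 8.17 with an exact 95% counting interval of 3.72 to 21.2. Such an interval on summed reads covers counting error only and not differences between mice. The log2 fold change of Hbb-bt was 2.26 ± 0.63 (SE) and its limma adjusted p was 0.0764.

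**Figure D1:**
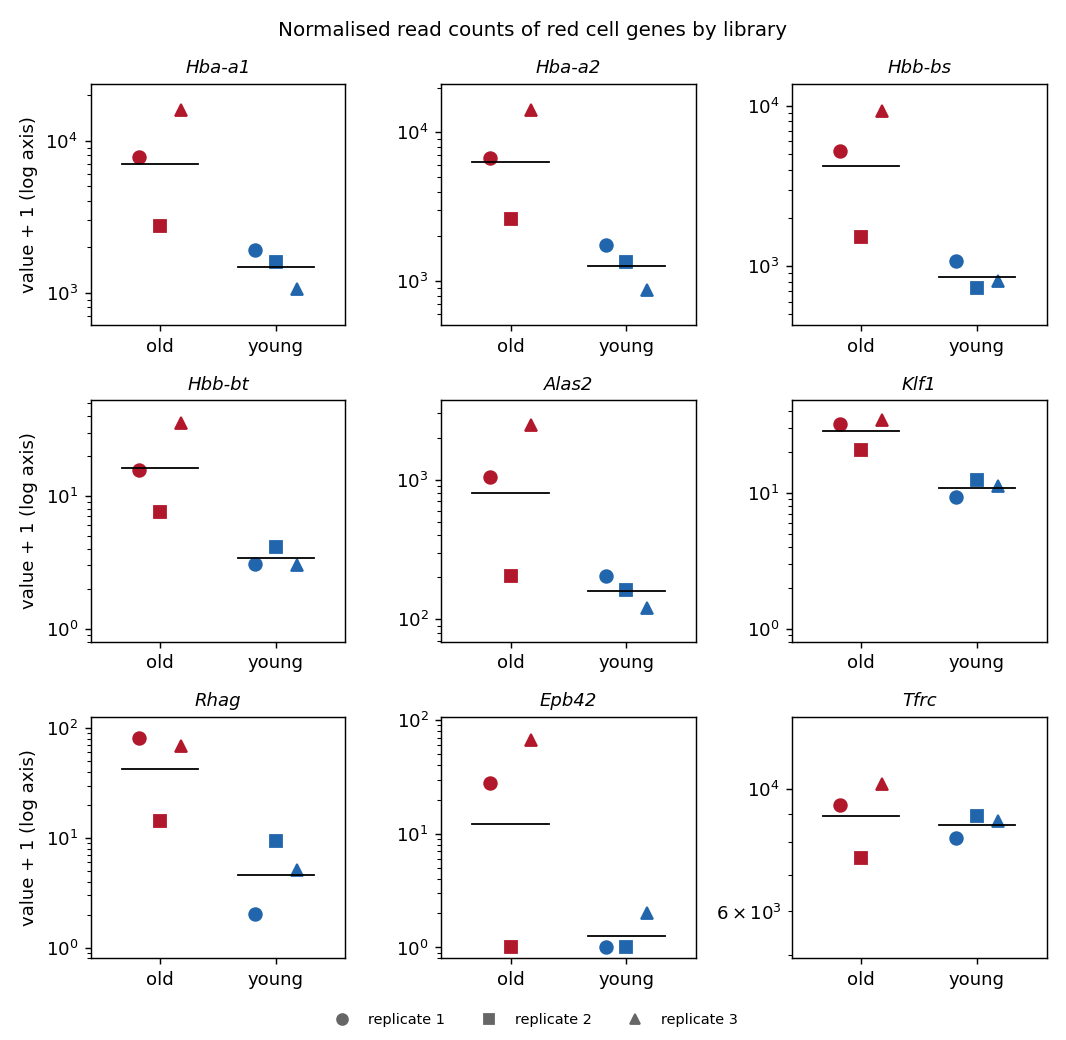
Normalised read counts plus 1 of the 9 genes on a log axis, 1 point per library (old left, young right), marker shape giving the replicate and the bar the mean of log2(value + 1) in a group. Old replicate 2 (square) is the lowest old library for all 9 genes, and Tfrc is the gene in which the groups lie together.

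The deposited table also lists Hbb-b1 and Hbb-b2, which in mouse genetics name the beta genes of another haplotype of the same locus as Hbb-bs and Hbb-bt. Hbb-b2 had exactly the values of Hbb-bt in all 6 libraries. Of 16142 genes with a read in every library, 23 (0.142%) share all 6 values with another gene. Hbb-b1 had 10005, 2988 and 17911 reads in old replicates 1, 2 and 3, and 1897, 1305 and 1465 reads in young replicates 1, 2 and 3. The ratio of Hbb-b1 to Hbb-bs reads ran from 1.844 to 1.854 over the 6 libraries, with an SD of 0.00401. Counting error alone would give an SD of 0.0232 to 0.0867 per library if the reads of the 2 names were independent. The 4 beta names therefore do not give 4 separate measurements here, and how the authors' counting shared reads among them was not tested.

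Summed over Hba-a1, Hba-a2, Hbb-bs and Hbb-bt, haemoglobin took 537, 186 and 1095 ppm of the summed values in old replicates 1, 2 and 3, against 119, 95.3 and 70.2 ppm in young replicates 1, 2 and 3. All old libraries lay above all young ones, and the old mean of 606 ± 458 stood against a young mean of 94.7 ± 24.2 (SD, n = 3 each). The log2 difference was 2.37, with p = 0.1 in a two-sided exact permutation test, the smallest p that 3 against 3 samples allow. Without old replicate 3 the difference was 1.77, and with Hbb-b1 and Hbb-b2 added to the sum it was 2.37. The wider sum took 801, 263 and 1572 ppm in old replicates 1, 2 and 3, and 169, 131 and 109 ppm in young replicates 1, 2 and 3. The size of the share therefore depends on which beta names are summed.

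Alas2 encodes the erythroid form of 5-aminolevulinate synthase, the first enzyme of haem synthesis. It lies at chrX:150547375-150570638 on the plus strand. Alas2 had 1047, 201.4 and 2440 normalised read counts in old replicates 1, 2 and 3, against 201.4, 161.8 and 119 in young replicates 1, 2 and 3. Old replicate 2 lay within the young range, so the groups overlapped, while the other old libraries stood well above it. The log2 fold change was 2.34 ± 0.85 (SE, 95% interval 0.30 to 4.39), and the limma adjusted p was 0.182. Without old replicate 3 it was 1.54, with a limma adjusted p of 0.280.

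Klf1 encodes the erythroid Krüppel-like factor, which binds CACCC motifs and activates beta globin, and lies at chr8:84901928-84905291 on the plus strand. It was measured with few reads, 32, 21 and 35 in old and 8, 11 and 10 in young libraries. In normalised read counts these are 31.02, 19.9 and 33.6 in old and 8.39, 11.4 and 10.2 in young libraries. The groups did not overlap, and the old libraries were closer to each other than for the haemoglobin genes. The sums were 88 reads in old and 29 in young, a depth-corrected ratio of 2.99 (exact 95% counting interval 1.95 to 4.72, for counting error only). The log2 fold change was 1.38 ± 0.39 (SE) with a limma adjusted p of 0.0765.

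Rhag encodes the Rh-associated glycoprotein of the red cell membrane and lies at chr17:40811126-40840754 on the plus strand. It had 79.5, 13.2 and 67.3 normalised read counts in old replicates 1, 2 and 3, against 1.05, 8.30 and 4.08 in young replicates 1, 2 and 3. Every old library lay above every young one, and old replicate 1 was the highest. Reads summed to 166 in old and 13 in young, a depth-corrected ratio of 12.6 (exact 95% counting interval 7.16 to 24.1, for counting error only). The log2 fold change of 3.22 ± 0.78 (SE, 95% interval 1.45 to 4.99) gave a limma adjusted p of 0.0507, the lowest of the 9 genes.

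Epb42 encodes protein 4.2, which links the anion exchanger band 3 to the membrane skeleton, and lies at chr2:121017891-121037072 on the minus strand. It had 28, 0 and 68 reads in old replicates 1, 2 and 3, against 0, 0 and 1 in young replicates 1, 2 and 3. Old replicate 2 could not be told from the young libraries, and a count of 0 there allows up to 2.84 normalised read counts. The ratio of summed reads was 94.7, with an exact 95% counting interval of 16.6 to 3777, wide because the young sum was 1 read. This interval covers counting error only and not differences between mice. The limma 95% interval over the 6 libraries was 0.09 to 6.48 on the log2 scale. The log2 fold change was 3.28 ± 1.40 (SE), with a limma adjusted p of 0.224. It was 2.07 without old replicate 3 (limma adjusted p 0.427) and 5.09 without old replicate 2 (limma adjusted p 0.00380).

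Tfrc encodes the transferrin receptor, which brings iron into red cell precursors and also into most other dividing or metabolically active cells. It lies at chr16:32608920-32632794 on the plus strand. Tfrc had 9340, 7512 and 10219 normalised read counts in old replicates 1, 2 and 3, against 8136, 8949 and 8743 in young replicates 1, 2 and 3. Old replicates 1 and 3 lay above the young range and old replicate 2 below it, so the groups overlapped. The log2 fold change was 0.06 ± 0.12 (SE, 95% interval -0.22 to 0.34), which lies below the intervals of Hba-a1, Hba-a2, Hbb-bs, Hbb-bt, Klf1 and Rhag. The limma adjusted p was 0.840, and the difference changed sign to -0.04 without old replicate 3.

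**Figure D2:**
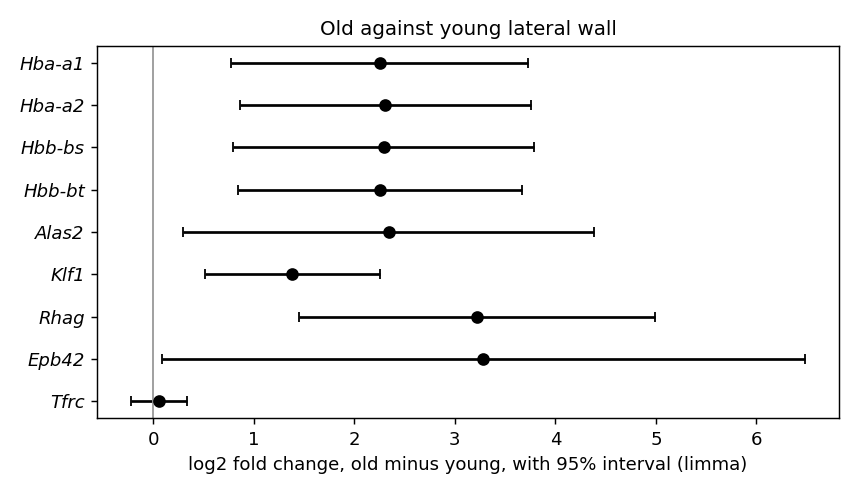
Log2 fold change, old minus young, of each gene with its 95% interval from limma over 3 old and 3 young libraries. The intervals of 8 genes lie above 0, from 1.38 for Klf1 to 3.28 for Epb42 at their centres, and that of Tfrc includes 0.

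By limma 0 of the 9 genes passed, where 5.25% of all genes did and 2.71% passed higher in old. Of the 9 genes, 8 had an unadjusted p under 0.05, all higher in old, where 10.8% of all genes did so in that direction. The edgeR quasi-likelihood test on reads recovered from the values passed 4 of the 9, Hba-a1, Hba-a2, Hbb-bs and Rhag, against 5.07% of all genes, with 2.73% higher in old. With DESeq2 size factors in place of TMM, edgeR passed 2, Hbb-bs and Rhag, against 855 of all 17091 genes. DESeq2 passed 6, the same 4 as edgeR with TMM and also Hbb-bt and Alas2, against 10.6% of all genes (5.71% higher in old). The authors' deposited table also has 6 of the 9 under an adjusted p of 0.05, against 1818 of all 17091 genes. Without old replicate 2, limma passed 7 of the 9, all but Klf1 and Tfrc, against 6.64% of all genes (3.24% higher in old). The same test passed 0 of the 9 without old replicate 3, against 612 of all 17091 genes. The log2 fold changes were then 1.66 for Hba-a1, 1.72 for Hba-a2 and Hbb-bs, 1.69 for Hbb-bt, 1.24 for Klf1 and 2.88 for Rhag.

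The groups did not overlap, with all old above all young libraries, for 6 of the 9 genes, where 13.2% of all genes did so. All 9 genes lay above the young range in old replicate 1, where 31.8% of all genes did, and all 9 in old replicate 3, where 33.8% did. In old replicate 2 it was 6 of the 9, where 33.2% of all genes lay above the young range. Old replicate 2 was the lowest old library for all 9 genes, and old replicate 3 the highest for 8, with Rhag the exception.

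Levels between genes were compared per kilobase of exon, with each globin copy taken alone. In old lateral wall Hba-a2, Hba-a1 and Hbb-bs led with 11772 ± 8830, 10872 ± 8189 and 6986 ± 5085 normalised read counts per kilobase (SD, n = 3), and neighbours in this order overlapped between libraries. Tfrc followed at 1459 ± 223 and Alas2 at 512 ± 471, each separated in all old libraries from its neighbours. Hbb-bt, Rhag and Klf1 overlapped each other in that order at 26.4, 22.8 and 18.4 per kilobase, and Epb42 was the lowest at 5.69.

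In young lateral wall the leading level per kilobase was 1980 ± 648 for Hba-a2, 1859 ± 524 for Hba-a1, 1392 ± 68.3 for Tfrc and 1133 ± 234 for Hbb-bs (SD, n = 3). Neighbours in this order overlapped. Tfrc stood below Hba-a1, Hba-a2 and Hbb-bs per kilobase in every old library. Among the young libraries it was below all 3 in replicate 1, between them in replicate 2 and above all 3 in replicate 3. The level of a single globin copy is uncertain, as given above. This order therefore does not rank Tfrc against globin RNA as a whole. Alas2 at 67.0 and Klf1 at 6.54 per kilobase were each separated from their neighbours, Hbb-bt at 3.44 and Rhag at 1.91 overlapped, and Epb42 was the lowest at 0.0628.

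The proportions among red cell RNAs were compared within libraries, where scaling cancels. The ratio of alpha to beta globin values was 2.77, 3.497 and 3.22 in old replicates 1, 2 and 3, and 3.38, 3.997 and 2.38 in young replicates 1, 2 and 3. The groups overlapped, with p = 1 in an exact permutation test. Hba-a1 stood to Hba-a2 at 1.04 to 1.17 in old and at 1.09 to 1.20 in young libraries. Hbb-bs stood to Hbb-bt at 230 to 360 in old and at 235 to 511 in young libraries, on the few reads of Hbb-bt. With Hbb-b1 and Hbb-b2 counted among the beta genes, the alpha to beta ratio was 0.971, 1.23 and 1.13 in old and 1.18, 1.40 and 0.836 in young libraries, so its size depends on which beta names are summed.

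The ratio of haemoglobin to Alas2 varied less among the young libraries than among the old. Alas2 had 192, 156 and 117 reads in young replicates 1, 2 and 3. Counting error limits how closely the young ratios can be compared, and whether the proportion is fixed was not tested. The 4 haemoglobin genes summed to 18.9, 34.2 and 16.2 times Alas2 in old replicates 1, 2 and 3, and to 23.4, 22.6 and 22.9 times Alas2 in young replicates 1, 2 and 3. The old libraries fell on both sides of the young ones, old replicate 2 above them and the other two below. The group means were 23.1 ± 9.70 in old and 23.0 ± 0.366 in young libraries (SD, n = 3 each), with p = 1 in an exact permutation test.

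The sum of the 4 haemoglobin genes was 638, 347 and 1175 times Klf1 in old replicates 1, 2 and 3, and 561, 321 and 268 times Klf1 in young replicates 1, 2 and 3. The groups overlapped, and the log2 difference of 0.81 had p = 0.2 in an exact permutation test. Over the 5 ratios tested, Benjamini-Hochberg adjusted p values were 0.833 to 1, and with 3 against 3 samples no unadjusted p can go below 0.1.

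**Figure D3:**
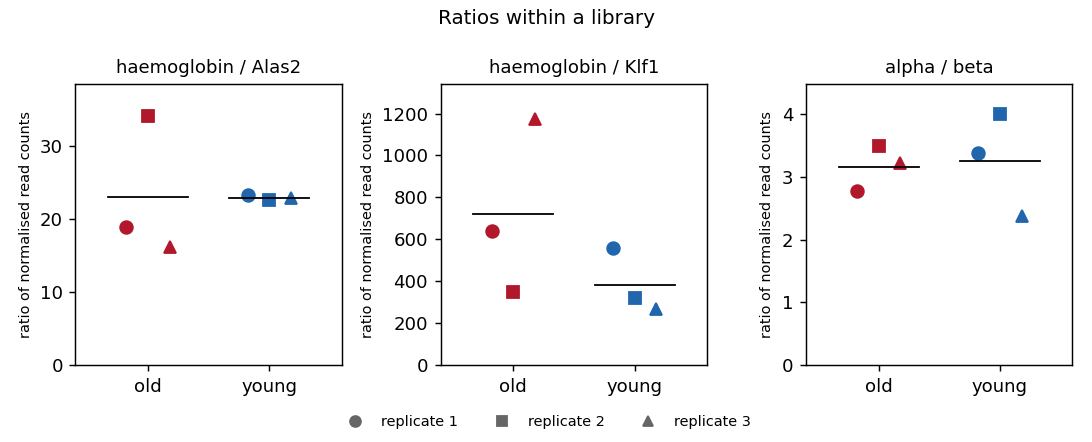
Ratios of normalised read counts within a library, 1 point per library with the group mean as a bar (old left, young right). The haemoglobin to Alas2 ratio spans 16.2 to 34.2 in old and 22.6 to 23.4 in young libraries, and the other 2 ratios overlap between groups.

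The 2 old mice with the most red cell RNA did not carry it in the same proportions. Relative to old replicate 1, old replicate 3 held 2.03 times as much Hba-a1 (95% counting interval 1.98 to 2.09), 2.12 times as much Hba-a2 and 1.78 times as much Hbb-bs. Alas2 stood at 2.33 times (2.17 to 2.50) and Epb42 at 2.41 times (1.53 to 3.88). Rhag, in contrast, stood at 0.846 times (0.606 to 1.18), an interval that lies below those of Hba-a1, Alas2 and Epb42. Klf1 stood at 1.08 times (0.652 to 1.81) and Tfrc at 1.09 times (1.06 to 1.12). These intervals cover counting error only and compare 2 mice, not 2 conditions.

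**Figure D4:**
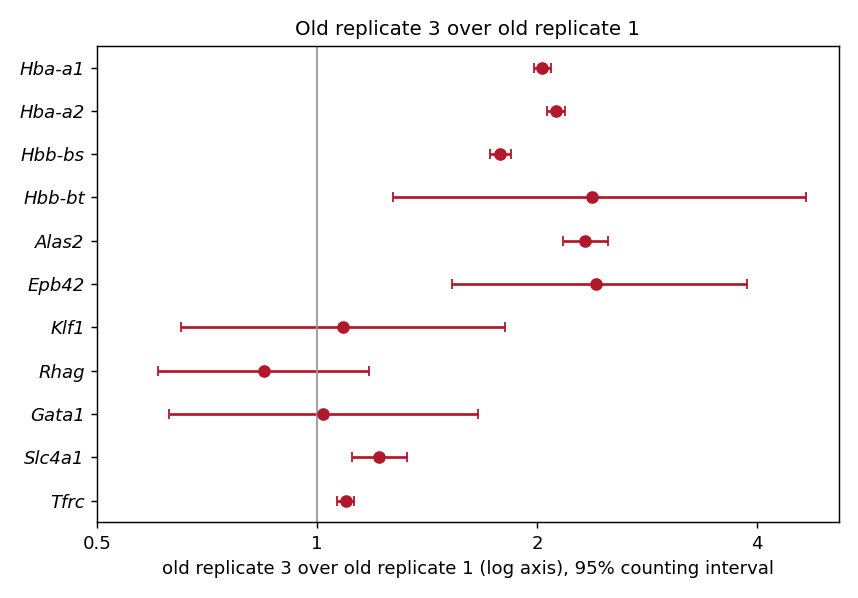
Ratio of normalised read counts, old replicate 3 over old replicate 1, on a log axis with 95% counting intervals. Haemoglobin genes, Alas2 and Epb42 centre between 1.78 and 2.41, and Rhag, Klf1, Gata1 and Tfrc between 0.846 and 1.09.

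Gata1 and Slc4a1, which are active in nucleated red cell precursors, were high in old replicates 1 and 3. Gata1, the master factor of the erythroid lineage, had 34.9, 0 and 35.5 normalised read counts in old replicates 1, 2 and 3, against 0, 0 and 1.02 in young replicates 1, 2 and 3. Slc4a1, which encodes band 3, had 897, 22.7 and 1091 in old and 45.1, 68.5 and 20.4 in young libraries. In both genes old replicate 2 lay within the young range, as it did for Alas2 and Epb42. It lay above the young range for the 4 haemoglobin genes and also for Klf1, Rhag and Ank1, so red cell genes did not behave alike in this library. The log2 fold changes were 2.80 for Slc4a1 and 3.11 for Gata1, with limma adjusted p values of 0.336 for Slc4a1 and 0.221 for Gata1. Old replicate 3 stood to old replicate 1 at a ratio of 1.02 for Gata1 (95% counting interval 0.626 to 1.66) and of 1.22 for Slc4a1 (1.11 to 1.33), and both intervals lie below those of Hba-a1 and Alas2.

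Markers of other blood and marrow cells were compared with the red cell genes across the old libraries. These marker lists were chosen with earlier results of these data known, so their counts are descriptive only. The 20 neutrophil and marrow granule markers summed to 6609, 1197 and 12875 normalised read counts in old replicates 1, 2 and 3, against 525 to 779 in the young libraries. On average their log2 values exceeded the young ones by 3.05, 0.80 and 3.74 in old replicates 1, 2 and 3, the same order as haemoglobin. Of the 20, 4 passed higher in old by limma (Lcn2, Elane, Csf3r and Padi4), the median log2 fold change was 2.80 and none was at 0 in either group. An unadjusted p under 0.05 was found for 17, and 6 passed by edgeR and 16 by DESeq2, all higher in old. Over all genes 2.71% passed higher by limma, 2.73% by edgeR and 5.71% by DESeq2, and 10.8% had an unadjusted limma p under 0.05 in that direction. Their part in the red cell result was not tested.

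The 13 platelet and megakaryocyte markers exceeded the young mean by 2.80, 0.15 and 2.01 log2 units in old replicates 1, 2 and 3. Of these, 0 passed by limma, 6 had an unadjusted limma p under 0.05, 0 passed by edgeR and 5 by DESeq2, all higher. Among all genes, 21.3% had an unadjusted limma p under 0.05 in either direction. The shares passing in either direction were 5.25% by limma, 5.07% by edgeR and 10.6% by DESeq2. Gp6 was at 0 in every young library. The platelet and megakaryocyte markers summed to 658 to 2097 normalised read counts in old and 766 to 825 in young libraries. The 8 measured B cell precursor markers were 0.09, 0.33 and 0.45 log2 units over the young mean in old replicates 1, 2 and 3. Of these, 0 passed by limma, 2 had an unadjusted limma p under 0.05, 0 passed by edgeR and 1 by DESeq2. The same shares of all genes stand beside these counts. The B cell precursor markers summed to 3527 to 5340 in old and 2862 to 5459 in young libraries. Macrophage markers exceeded the young mean by 1.20, 0.94 and 1.40 log2 units in old replicates 1, 2 and 3, also in the order of haemoglobin. By limma 11 of 15 passed higher in old, where 2.71% of all genes did. The 15 macrophage markers summed to 31933 to 43551 in old and 14178 to 16054 in young libraries.

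Endothelial markers stood at -0.17, 0.23 and 0.79 relative to the young mean in old replicates 1, 2 and 3. Of 12, 0 passed by limma, 2 had an unadjusted p under 0.05, 0 passed by edgeR and 2 by DESeq2, 1 in each direction. Among all genes, 21.3% had an unadjusted limma p under 0.05 in either direction. The shares passing in either direction were 5.25% by limma, 5.07% by edgeR and 10.6% by DESeq2. The endothelial markers summed to 17085 to 31130 normalised read counts in old and 20287 to 22347 in young libraries. The lateral wall markers stood at -0.22, -0.23 and -0.29 in the same libraries, and 1 of the 14 passed, lower in old. For none of these lists was the part in the red cell result tested.

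**Figure D5:**
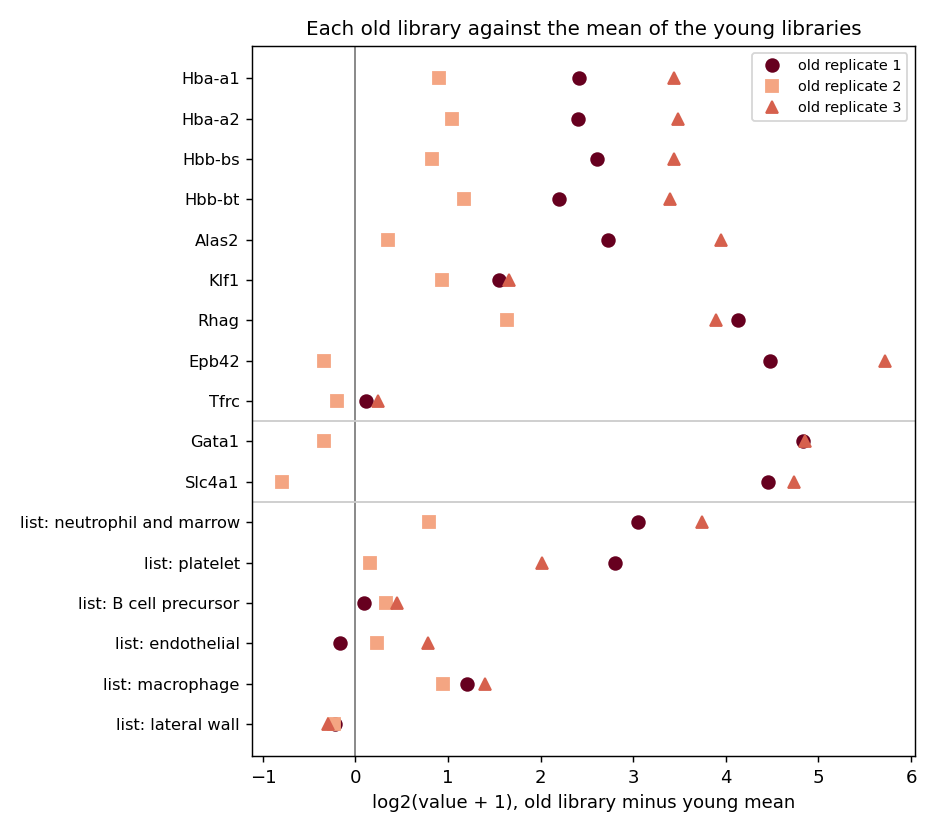
Log2(value + 1) of each old library minus the young mean, for the 9 genes, for 2 further red cell genes and for the mean over each list of cell type markers. Old replicate 2 lies between -0.34 and 1.63 for the 9 genes, and the red cell, neutrophil and platelet points of old replicates 1 and 3 lie to its right.

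The 130 tested genes of the 7 red cell lists that are not among the 9 had a median log2 fold change of 0.17, against -0.000969 over all genes. Of these, 5 passed higher and 7 lower in old, where 2.71% of all genes passed higher and 5.25% in either direction. Without old replicate 2 the number passing in either direction was 31, where 6.64% of all genes passed. The lists count a gene shared by several lists in each. Of the 12 calls, 7 were lost by limma without trend and robust estimation (Alas1, Aqp1, Zfpm1, Ikzf1, Stat5b, Trf and Lcn2). Quantile normalisation ended those of Aqp1, Ikzf1 and Trf, scaling to library totals that of Zfpm1, and a mean of at least 10 or a pseudocount of 0.1 or 10 that of Alas1.

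Of 20 genes on the haem synthesis list, which include Alas2, 1 passed higher and 0 lower, with a median log2 fold change of 0.09. The gene that passed was Alas1, the form of the first enzyme used outside the erythroid lineage. It had 3791, 3361 and 3842 normalised read counts in old and 2237, 2830 and 2809 in young libraries, and differed by 0.49 ± 0.12 on the log2 scale (SE, limma adjusted p 0.0487). The call was lost in 5 of 6 fits that left out 1 library, with adjusted p up to 0.125.

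Fech, which inserts iron into haem as the last step, had 5775, 4824 and 5570 normalised read counts in old replicates 1, 2 and 3, against 5473, 5193 and 5326 in young replicates 1, 2 and 3. The groups overlapped, with a log2 fold change of 0.01 ± 0.10 (SE). Slc25a37, a mitochondrial iron importer, differed by 0.31 ± 0.12 on the log2 scale (SE, limma adjusted p 0.169). Clpx, a mitochondrial chaperone that acts on 5-aminolevulinate synthase, had one of -0.24 ± 0.09 (SE, limma adjusted p 0.178).

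Of 28 red cell membrane genes, which include Rhag and Epb42, 1 passed higher and 1 lower, with a median log2 fold change of 0.78. Tspan33, a tetraspanin named for its role in red cell formation but also present in other blood cells, had 215, 257 and 212 normalised read counts in old and 114, 88.2 and 105 in young libraries, and differed by 1.15 ± 0.20 on the log2 scale (SE, limma adjusted p 0.0150). Its highest old library was replicate 2, unlike any of the 9 genes. The call was lost without young replicate 2 or young replicate 3, with limma adjusted p up to 0.0715.

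Aqp1, a water channel of red cells that spiral ligament fibrocytes also make, fell to 2108, 5456 and 1589 normalised read counts in old libraries, against 12668, 10790 and 11383 in young libraries. The log2 difference was -2.14 ± 0.43 (SE, limma adjusted p 0.0435), opposite in sign to Rhag and Epb42. The call was lost in 5 of 6 fits without 1 library, with adjusted p up to 0.162. Ank1, the red cell ankyrin, had 156, 153 and 367 in old and 53.5, 94.4 and 81.7 in young libraries, without overlap, and a limma adjusted p of 0.0595.

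Of 24 erythroid factors and receptors, which include Klf1, 1 passed higher and 2 lower, with a median log2 fold change of 0.59. Ikzf1, a factor of the lymphoid and other blood lineages as well, had 144, 88.9 and 245 normalised read counts in old and 49.3, 49.8 and 37.8 in young libraries (log2 fold change 1.67 ± 0.36 SE, limma adjusted p 0.0317). Stat5b, a transducer of erythropoietin and of many other signals, was lower, at 4282, 4373 and 4315 in old and 5829, 7617 and 7454 in young libraries (-0.68 ± 0.12 SE, limma adjusted p 0.0143). Zfpm1, the cofactor of Gata1, was also lower, at 1186, 1006 and 1227 in old and 1517, 1653 and 1783 in young libraries (-0.54 ± 0.12 SE, limma adjusted p 0.0352). In fits without 1 library, the call was lost in 5 of 6 for Ikzf1, 5 of 6 for Zfpm1 and 2 of 6 for Stat5b.

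Of 19 genes of red cell metabolism, 0 passed by limma, 6 had an unadjusted p under 0.05, 0 passed by edgeR and 1 by DESeq2. Their median log2 fold change was 0.17. Among all genes, 21.3% had an unadjusted limma p under 0.05 in either direction. The shares passing in either direction were 5.25% by limma, 5.07% by edgeR and 10.6% by DESeq2. Slc14a1, the urea transporter, had 35.9, 16.1 and 49.0 normalised read counts in old and 8.39, 7.26 and 13.3 in young libraries (log2 fold change 1.61 ± 0.48 SE, limma adjusted p 0.0953). Fbxo7, a ubiquitin ligase subunit, differed by 0.30 ± 0.09 on the log2 scale (SE, limma adjusted p 0.109). Pklr, the red cell and liver pyruvate kinase, was counted with 4, 3 and 8 reads in old and 1, 1 and 0 in young libraries.

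Genes of iron handling differed in both directions. Of 26 measured genes, which include Tfrc, 2 passed higher and 2 lower, with a median log2 fold change of -0.12. Slc11a1, the iron and manganese transporter of phagocyte vesicles, had 319, 357 and 538 normalised read counts in old and 86.0, 134 and 116 in young libraries (1.83 ± 0.25 SE on the log2 scale, limma adjusted p 0.00572). Lcn2, lipocalin 2, which binds iron-carrying siderophores and is also on the neutrophil list, had 533, 197 and 968 in old and 56.7, 69.5 and 76.6 in young libraries (2.78 ± 0.51 SE, limma adjusted p 0.0236). Lcn2 thus ran in the order of haemoglobin over the old libraries, and Slc11a1 did not.

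Heph, a ferroxidase that works with the iron exporter, fell to 50.4, 57.7 and 67.3 normalised read counts in old libraries, against 244, 272 and 245 in young libraries (-2.11 ± 0.21 SE on the log2 scale, limma adjusted p 0.00160). Trf, transferrin, the ligand of the Tfrc receptor, fell to 95642, 138883 and 93134 in old libraries, against 208293, 179691 and 200281 in young libraries (-0.87 ± 0.16 SE, limma adjusted p 0.0206). The receptor was at a log2 difference of 0.06 in the same libraries. In fits without 1 library, Heph and Slc11a1 kept their calls in all 6, while Lcn2 lost its call without any 1 of the 3 young libraries and Trf without any of these or old replicate 1.

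Slc40a1, the iron exporter ferroportin, had 279, 268 and 333 normalised read counts in old and 274, 231 and 220 in young libraries, with overlap and a limma adjusted p of 0.40. Fth1, the ferritin heavy chain, had 121686, 103723 and 153818 in old and 97150, 97496 and 89971 in young libraries. The Fth1 groups did not overlap, with a log2 fold change of 0.40 ± 0.15 (SE) and a limma adjusted p of 0.169.

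Of 13 measured genes for the clearance of haem and haemoglobin, 0 passed higher and 1 lower, with a median log2 fold change of 0.06. Lrp1, the receptor of the haem and haemopexin complex and of many other ligands, was lower, at 12304, 13476 and 13808 normalised read counts in old and 20085, 22113 and 23510 in young libraries (-0.73 ± 0.10 SE on the log2 scale, limma adjusted p 0.00602). It kept its call in all 6 fits without 1 library. Hp, haptoglobin, which binds free haemoglobin and is also stored in neutrophil granules, had 183, 21.7 and 420 in old and 11.5, 18.7 and 14.3 in young libraries (2.96 ± 0.97 SE, limma adjusted p 0.140). Hp was therefore ordered over the old libraries as haemoglobin was.

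Cd5l, a protein of tissue macrophages, was counted with 7, 7 and 25 reads in old and 3, 2 and 2 in young libraries. Hmox1, haem oxygenase, had 1351, 1224 and 1072 normalised read counts in old and 967, 1320 and 1235 in young libraries. These overlapped, with a log2 fold change of 0.06 ± 0.15 (SE) and a limma adjusted p of 0.872.

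Of 6 other globin genes measured, 0 passed higher and 1 lower. Mb, myoglobin, the oxygen store of muscle, fell to 8.73, 3.78 and 3.84 normalised read counts in old libraries, against 50.4, 23.9 and 38.8 in young libraries (-2.61 ± 0.47 SE on the log2 scale, limma adjusted p 0.0178). The call was lost without young replicate 1 or young replicate 3, with limma adjusted p up to 0.0896. Cygb, cytoglobin, which fibroblasts make, had 318, 309 and 404 in old and 257, 195 and 214 in young libraries, without overlap and with a limma adjusted p of 0.0895. Ahsp, the alpha haemoglobin chaperone, was not analysed here.

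The genes whose profile over the 6 libraries was most like that of the haemoglobin genes were sought among the 12787 genes with a mean of at least 50 normalised read counts. Likeness was the root mean square difference of centred log2 values. Hbb-b1 was the nearest at 0.186, and its reads stood in a nearly fixed ratio to those of Hbb-bs, as given above. Lrg1, a secreted glycoprotein of neutrophil granules and vessels, came next at 0.302, with 279, 148 and 870 normalised read counts in old and 73.4, 105 and 66.4 in young libraries. Sec14l5 at 0.321, Hpcal4, of the neuronal calcium sensor family, at 0.321, Sult1c2, a sulphotransferase, at 0.330, and Rac2, a small GTPase of blood cells, at 0.351 made up the first 6.

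On the same measure, Alas2 lay at 0.358 from the haemoglobin profile, Klf1 at 0.713, Rhag at 0.95, Tfrc at 1.27 and Epb42 at 1.37. Alas2 was thus close to the last of the first 6, Rac2 at 0.351. Those 6 were picked as the nearest of all genes compared. Klf1, Rhag and Epb42 were counted with few reads, so their distances are not ranked against the 6. The profile of Tfrc was nearly flat, and the genes nearest to it were Rbm28 at 0.0270, Gon4l at 0.0304, Plcb4 at 0.0317, Htt at 0.0379, Vars at 0.0381 and Ndrg2 at 0.0384.

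The promoters of 7 genes that were high together in old replicates 1 and 3 are shown, so that what they share can be seen. That of Hba-a2, which was high in the same libraries, is not printed. Each stretch is the 150 bases before the RefSeq start (GRCm38.p6), read 5′ to 3′ on the strand of the gene. Hba-a1 is chr11:32283522-32283671 on the plus strand, Hbb-bs chr7:103827929-103828078 on the minus strand and Hbb-bt chr7:103813924-103814073 on the minus strand. Epb42 is chr2:121036878-121037027 on the minus strand, and Alas2 chrX:150547267-150547416, Klf1 chr8:84901832-84901981 and Rhag chr17:40810999-40811148 are on the plus strand. Capitals mark GATA hexamers, which are AGATAA, its variant ending in G, which is AGATAG, and the variants opening with T, which are TGATAA in one case and TGATAG in the other. They also mark CACCC as well as matches to CCAAT, all on either strand, and TATAA on the strand shown. In Rhag a CCAAT match and a CACCC match on the reverse strand overlap. The stretch of Epb42 holds no match, since its GATA hexamer lies farther upstream. Also upstream of the printed stretches lie the GATA hexamers of Hba-a1 and Hbb-bs, 183 and 210 bases before the start. The same holds for a CACCC of Hba-a1, the TATAA of Alas2 and a CCAAT of Rhag, at 167, 207 and 177 bases.
Hba-a1: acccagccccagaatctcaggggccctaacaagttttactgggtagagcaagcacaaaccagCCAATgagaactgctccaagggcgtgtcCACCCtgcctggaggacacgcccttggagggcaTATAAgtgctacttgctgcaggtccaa
Hbb-bs: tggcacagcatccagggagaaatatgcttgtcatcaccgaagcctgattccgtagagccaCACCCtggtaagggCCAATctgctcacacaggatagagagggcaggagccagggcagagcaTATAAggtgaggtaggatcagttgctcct
Hbb-bt: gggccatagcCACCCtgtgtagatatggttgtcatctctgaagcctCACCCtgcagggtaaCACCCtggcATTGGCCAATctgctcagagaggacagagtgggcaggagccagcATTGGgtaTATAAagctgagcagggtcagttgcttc
Alas2: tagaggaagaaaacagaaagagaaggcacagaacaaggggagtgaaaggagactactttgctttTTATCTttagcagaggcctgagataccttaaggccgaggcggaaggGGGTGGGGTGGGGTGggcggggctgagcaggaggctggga
Klf1: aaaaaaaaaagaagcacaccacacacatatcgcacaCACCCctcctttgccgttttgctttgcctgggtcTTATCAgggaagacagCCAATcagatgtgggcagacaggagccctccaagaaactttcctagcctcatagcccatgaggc
Rhag: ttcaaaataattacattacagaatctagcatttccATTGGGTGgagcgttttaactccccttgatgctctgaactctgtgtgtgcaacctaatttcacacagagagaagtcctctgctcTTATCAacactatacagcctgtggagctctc
Epb42: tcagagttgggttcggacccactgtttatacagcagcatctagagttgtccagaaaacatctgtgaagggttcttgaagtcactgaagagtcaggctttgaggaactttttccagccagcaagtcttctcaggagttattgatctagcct

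The search covered the 250 bases before the first listed start of each gene, while the shares over all genes count every listed start. A GATA hexamer was found in 7 of the 9 windows, where 23.6% of the 21262 windows of all protein-coding genes hold one. CACCC was found in 8 of 9, where 54.2% of all windows hold it, CCAAT in 7 of 9 against 35.4%, and TATAA in 5 of 9 against 14.9%. A second listed start of Tfrc, left out of these counts, holds TATAA 172 bases before it. A GATA hexamer and CACCC were both found in 6 of 9, where 10.6% of all windows hold both. The windows without a GATA hexamer were those of Hbb-bt and Tfrc, and the alpha and the beta globin windows, which derive from gene duplication, are not independent of each other. Hba-a1, Hbb-bs and Hbb-bt carry TATAA 27, 29 and 28 bases before the start and Alas2 207 bases before it. Klf1, Rhag and Epb42 have none in the window. Such matches describe letters and were not tested as binding sites.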

How the data were processed

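RNA was sequenced from 3 old and 3 young lateral walls, grouped by the sample titles, and each sample is a separate mouse. The column headers of young replicate 1 and old replicate 2 end in the same index, whose meaning is not stated. Whether the 2 groups shared a sequencing run was not tested. The authors deposited 1 table with a normalised signal (a read count divided by a size factor) per gene and library, and with a p-value, an adjusted p and a signed fold change for old against young. The submitters' processing notes name Partek, TopHat2, DESeq2 and mm10 without versions or roles; the annotation and strandedness are not given in the sources used here. If the libraries hold no strand, reads of genes that overlap on opposite strands cannot be told apart. Dividing by the smallest value of a library gave numbers within 0.1 of a whole read in 99.8% of values, and in 100% of those under 10000. In the deposited table, 332 genes have no adjusted p.

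The test for normalised values was limma 3.58.1 (trend and robust, R 4.3.3) on log2(value + 1), a scale that compresses differences at low values, adjusted over 17091 genes with a threshold of 0.05. The filter of a mean of at least 1 removed 0 genes. Recovered reads were tested with edgeR 4.0.16 and DESeq2 1.42.0. The fits were tested on simulated data. Counting intervals (95%) and the floor of 3 counts cover counting error only. Other alternatives were quantile normalisation, scaling to library totals with or without haemoglobin, a filter on genes under a mean of 10, limma with neither trend nor robust estimation, a replicate block, other pseudocounts (0.1 or 10) and leaving out each library. Adding Hbb-b1 and Hbb-b2 to the sums and scaling to full totals were chosen after seeing the data.

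The members and gene lists were chosen with earlier results of these data known. Named genes were all 9 members, the 3 genes with the smallest p in each red cell list, 9 fixed red cell and iron genes, and the 6 genes most like the haemoglobin and Tfrc profiles. Some genes that this rule takes are not reported here. Lcn2, Elane, Csf3r, Padi4 and Gp6 fall outside this rule and were named after their values were seen. Positions come from GENCODE M21, where 9 of 9 members matched, and promoters from RefSeq.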

Additional observations from a re-analysis of the deposited data

How the results depend on the processing

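The 8 genes other than Tfrc kept a positive log2 fold change in 144 of 144 alternative fits (18 each), and Tfrc changed sign to -0.0384 without old replicate 3 (-0.0384 to 0.184 over the fits without 1 library). The number of the 9 genes passing was 0 by limma, 4 by edgeR with TMM, 2 by edgeR with DESeq2 size factors, 6 by DESeq2, 6 in the authors' deposited table and 0 to 7 without 1 library, the 7 being without old replicate 2. The number of all genes passing, 898, was 337 without trend and robust estimation, 1819 by DESeq2, 1818 in the deposited table and 230 to 1134 without 1 library. The number of other red cell genes passing, 12, was 5 without trend and robust estimation, 32 by DESeq2, 32 in the deposited table and 3 to 31 without 1 library (31 without old replicate 2, and 6, 4 and 3 without young replicates 1, 2 and 3). With the replicate block, 406 of all genes, 0 of the 9 and 6 of the other red cell genes passed; it ended the calls of Alas1, Aqp1, Tspan33, Zfpm1, Ikzf1 and Trf. Same-numbered old and young samples had correlations of deviations of -0.244, -0.0965 and -0.0879, and differently numbered ones ran from -0.146 to 0.235. The numbers thus showed no sign of pairing the samples, but so few correlations cannot exclude it. Scaling each library to its total in place of the authors' size factors moved the median of all genes to 0.09 and the calls to 590 higher and 276 lower with haemoglobin left out of the total, or 588 and 276 with it included, against 463 and 435. The second of these was added after seeing the data. The haemoglobin share difference was 1.77 to 3.05 without 1 library, and the log2 differences of the ratios were then -0.22 to 0.15 for alpha over beta, -0.10 to -0.01 for Hba-a1 over Hba-a2, -0.67 to -0.11 for Hbb-bs over Hbb-bt, -0.39 to 0.15 for haemoglobin over Alas2 and 0.37 to 1.25 for haemoglobin over Klf1. Genes with few reads, Hbb-bt, Klf1, Rhag and Epb42, are limited by depth.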
